A study of Mus musculus with 9 samples.

Results

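The sciatic nerves of PINCH1 mutant and PINCH2 mutant mice were placed on one side of a single comparison and set against those of control littermates, to find what both mutants share. The comparison held 9 libraries, 3 from each genotype, so 6 mutant libraries stood against 3 controls, with both genotypes weighted equally. Of the 25965 gene entries in the table, 4909 had at least 10 counts in at least 3 of the 9 libraries and were tested. All animals were on a C57BL/6 background, and their age was labelled as postnatal day 15 but given as 14 days in the protocol. The nerves had been stripped of the epineurium, and each library was made from a pool of 4 nerves that came from 1 male and 1 female. The sources used here do not say how the mutants were made or in which cells the genes were altered.

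PINCH1 and PINCH2, encoded by Lims1 and Lims2, are LIM-domain adaptors without enzymatic activity. Each can bind integrin-linked kinase (Ilk), which in turn binds a parvin, and the trio links integrins to actin at sites of adhesion to the matrix. In the peripheral nerve, Schwann cells use laminin-binding integrins and actin remodelling to sort axons and wrap them in myelin, a membrane rich in lipid and in a small number of proteins made at very high levels.

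Library totals ran from 957828 to 1204964 counts, and between 9674 and 11240 entries were detected in each. Pmp22 and Mbp, which encode abundant proteins of peripheral myelin, were read at 1620 to 4840 CPM (the count scaled to the library size, with TMM factors) in all 9 libraries. Entries whose exons overlap exons of a gene on the opposite strand, called here the partner, held 84.1% to 87.9% of each library's counts. The entry mt-Nd6, over mt-Nd5, was read at 84700 to 113000 CPM, and mt-Cytb, without a partner, at 2310 to 3410 CPM. No source used here names the counting tool or its strand setting, so the counts under such a name cannot be told apart from transcription of the partner. From which strand the counts come was not tested, so it is also unknown for names without a partner. Among the tested entries, 2735 had a partner, 2115 had none and 59 could not be matched to the annotation. The libraries did not separate mutants from controls on the leading principal component, which took 19.3% of the variance: the controls lay at -11.4, 16.6 and -10 and the mutants between -26.7 and 32.7. On the third component (15.2%) the controls lay at 19.1, 9 and 5.7 and the PINCH1 mutants at -16.9, -4.2 and -13.4. The PINCH2 mutants lay there at -19.4, -3.7 and 23.8, so only the third PINCH2 library was on the side of the controls.

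No entry passed the test with a change that both mutants share. With edgeR's quasi-likelihood test and Benjamini-Hochberg adjustment over all 4909 entries, 1 entry was called higher over both mutants (0.0204% of those tested) and 0 were called lower. That entry, Zdhhc17, was high in the PINCH1 mutants only. At an unadjusted p under 0.05 the counts were 86 higher (1.75%) and 171 lower (3.48%), in all 257 entries (5.24%), where a test with no differences at all would give 245.5. With the entries that have a partner and those that do not scaled separately, the split was 104 higher and 126 lower. All 6 mutant libraries lay above all 3 controls for 51 entries (1.04%) and below them for 104 entries (2.12%), in all 155 (3.16%). Against the same controls, 3 entries were called for PINCH1 mutants alone (0.0611%) and 1 for PINCH2 mutants alone (0.0204%). Between the mutants, 4 entries were called (0.0815%) and 305 had an unadjusted p under 0.05 (6.21%). The design has 3 control pools, so the p-values measure the spread between pools.

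Zdhhc17 encodes a palmitoyltransferase that attaches fatty acids to other proteins. It was read at 75.7, 69.8 and 82.9 CPM in the controls. The PINCH1 mutants gave 450, 365 and 375 CPM, far above every control, while the PINCH2 mutants gave 73.0, 81.0 and 71.2 CPM, all within the control range. The log2 fold change of both mutants together was 1.18 (SE 0.17, adjusted p = 0.003 by edgeR), made of 2.38 in PINCH1 mutants and -0.02 in PINCH2 mutants. The mutants differed from each other by 2.40 on the log2 scale (95% interval 2.0 to 2.79, adjusted p = 9.21e-08 by edgeR). With the requirement that both mutants differ from control, the adjusted p became 1, and with the 6 mutant libraries treated as a single group it was 0.987. On GRCm38 the entry spans chr10:110941782-111010066 on the minus strand and has no partner. Its nearest neighbour on the other strand, Csrp2, lies 2158 bp away and had at most 19 counts in any library.

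Among the entries next in order on the higher side, none of which passed, Krt10 came first. It encodes a type I keratin known from the outer layers of the epidermis. Control libraries had 10, 25 and 32 counts, PINCH1 mutant libraries 69, 67 and 76, and PINCH2 mutant libraries 53, 74 and 30. Scaled for depth these were 10.4, 23.6 and 28.5 CPM in controls against 30.1 to 76.2 CPM in the mutants, so the groups did not overlap, although the lowest PINCH2 mutant stood next to the highest control. The log2 fold change was 1.45 (SE 0.33, adjusted p = 0.51 by edgeR), with 1.67 in PINCH1 mutants and 1.23 in PINCH2 mutants, and the mutants differed by 0.44 (95% interval -0.25 to 1.14). Without the filter on low counts the same entry passed at an adjusted p of 0.00533 in edgeR. Krt10 lies at chr11:99385254-99389364 on the minus strand, over Gm11940, which had 0 counts in every library, which allows up to 3 counts (2.5 to 3.41 CPM). Of the 7 keratinocyte markers listed, Krt14, Krt5, Krt1 and Dsg1a were at 0 in all 9 libraries. The summed level of the 7 was 10.4 to 33 CPM in controls, 62.7 to 76.2 in PINCH1 mutants and 30.1 to 61.8 in PINCH2 mutants, nearly all of it Krt10.

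The remaining entries named on the higher side had adjusted p between 0.668 and 0.866 in edgeR. By the rule for naming them, each had all 6 mutant libraries above all 3 controls. Of these, Padi1, Grin2d, Golm1 and Il25 had fewer than 10 counts in every control, so they were tested only because of the mutant libraries in which they are high, and the direction of their values follows from that. Padi1, a peptidylarginine deiminase that converts arginine in keratins and other proteins to citrulline, was read at 2.07, 1.89 and 4.46 CPM in controls and at 7.41 to 20 CPM in the mutants. Its log2 fold change was 2.08 (SE 0.61). Zfp652, a zinc finger repressor, was read at 67.4, 64.1 and 58.0 CPM in controls and at 72.7 to 142 CPM in the mutants, a log2 fold change of 0.74 (SE 0.22). The control values of Padi1 lay near the limit that a count of 0 allows. Map4k2, a kinase upstream of stress-activated kinases, stood at 1.02 on the log2 scale (SE 0.33), and Grin2d, a subunit of NMDA receptors, at 1.25 (SE 0.42). The metalloproteinase Mmp28 stood at 0.87 (SE 0.30), the Golgi protein Golm1 at 2.03 (SE 0.74) and Coq4, needed for coenzyme Q synthesis, at 0.79 (SE 0.29). Epb4.1, which encodes a protein of the membrane skeleton, was at 0.46 (SE 0.17), the deubiquitinase Usp3 at 0.92 (SE 0.36) and the cytokine Il25 at 1.41 (SE 0.55). For all 11 entries that did not pass, the interval of the difference between mutants included 0. Of the 12 named on the higher side, 3 had no partner.

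On the lower side, the entries next in order began with Mbp and Vim. Myelin basic protein, encoded by Mbp, holds the cytoplasmic faces of the myelin membrane together. It was read at 2480, 3440 and 3160 CPM in controls. The PINCH1 mutants gave 2320, 1670 and 1950 CPM and the PINCH2 mutants 1620, 2390 and 2190 CPM, all below the lowest control, with the highest mutant close to it. The log2 fold change was -0.58 (SE 0.15, adjusted p = 0.668 by edgeR), with -0.61 and -0.55 in the mutants taken singly and a difference between them of -0.06 (95% interval -0.42 to 0.30). Without the filter on low counts, Mbp passed at an adjusted p of 0.0444 in edgeR. In whole nerve, fewer cells of a type and less RNA per cell cannot be told apart.

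Vim encodes vimentin, the intermediate filament of Schwann cells, fibroblasts and endothelium. Its level was 159, 228 and 222 CPM in controls, 129, 130 and 112 CPM in PINCH1 mutants and 127, 124 and 150 CPM in PINCH2 mutants. The mutants formed a tight range below all controls, and the log2 fold change over both was -0.66 (SE 0.17, adjusted p = 0.668 by edgeR). Vim lies at chr2:13573927-13582826 on the plus strand and has neither a partner nor an opposite-strand neighbour within 5000 bp.

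The promoters of Krt10, from the higher side, and Vim, from the lower side, are shown from the RefSeq table (GRCm38.p6) as examples for the leading entries. The Krt10 window ends where the counted entry begins, but the Vim window lies inside the span of the counted Vim entry, because the RefSeq start is further along the gene. The 250 bases before each start are printed 5′ to 3′ in the direction of the gene, from chr11:99389365-99389614 on the minus strand and chr2:13574061-13574310 on the plus strand. Capitals mark a TATA box (TATAAA) and CCAAT boxes, the latter written ATTGG where they lie on the other strand.
Krt10: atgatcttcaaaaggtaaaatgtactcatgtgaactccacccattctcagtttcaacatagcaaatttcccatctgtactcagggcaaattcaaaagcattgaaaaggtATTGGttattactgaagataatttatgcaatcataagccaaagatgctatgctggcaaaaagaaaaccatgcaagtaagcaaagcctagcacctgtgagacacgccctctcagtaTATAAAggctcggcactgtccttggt
Vim: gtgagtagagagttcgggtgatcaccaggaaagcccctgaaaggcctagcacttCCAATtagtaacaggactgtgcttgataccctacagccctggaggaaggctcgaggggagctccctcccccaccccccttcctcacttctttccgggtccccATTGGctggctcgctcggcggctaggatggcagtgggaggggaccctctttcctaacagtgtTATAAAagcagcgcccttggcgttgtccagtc
The TATA box began 26 bases before the start in Krt10 and 32 bases before it in Vim. Krt10 had 1 CCAAT box, 141 bases before the start, and Vim had 2, at 196 and 94 bases. No GC box (GGGCGG) was in either window on either strand. Among 32851 RefSeq promoters of this length, 12.4% held TATAAA, 33.8% CCAAT and 32.7% GGGCGG on either strand.

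The other entries named on the lower side also had an adjusted p of 0.668 in edgeR. By the rule for naming them, all 6 mutant libraries lay below all 3 controls. Actb, cytoplasmic beta-actin, was read at 74.6, 98.1 and 86.5 CPM in controls against 52.7, 64.8 and 51.6 CPM in PINCH1 mutants and 38.1, 35.9 and 55.2 CPM in PINCH2 mutants. That was a log2 fold change of -0.81 (SE 0.22), with a small gap between the lowest control and the highest mutant. Fads1, a fatty acid desaturase, had 62.2, 73.5 and 80.3 CPM in controls and 28.4 to 55.2 CPM in mutants, a log2 fold change of -0.87 (SE 0.25). Elovl1, which elongates very long chain fatty acids, stood at -0.85 (SE 0.26).

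Sat1, which acetylates polyamines for export or breakdown, was at 22.8, 32.1 and 36.6 CPM in controls and at 2.12 to 21.6 CPM in mutants, a log2 fold change of -1.52 (SE 0.40). Gng2, a G protein gamma subunit, stood at -0.76 (SE 0.21; -0.79 in PINCH1 and -0.74 in PINCH2 mutants) and Plekhb1, a membrane-binding protein, at -0.60 (SE 0.17; -0.62 and -0.58). Stard13, a GTPase-activating protein, stood at -1.40 (SE 0.41), Kif1b, an axonal transport kinesin, at -1.01 (SE 0.30) and Ecscr, an endothelial surface protein, at -1.04 (SE 0.32). For 3 of these the 95% interval of PINCH1 minus PINCH2 mutants left out 0 before adjustment: Sat1 with 0.10 to 2.29, on the side of a lower PINCH2 value, and Stard13 with -2.68 to -0.45 and Ecscr with -1.80 to -0.12, on the side of a lower PINCH1 value. Of the 12 that came next on the lower side, 9 had no partner.

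**Figure D1:**
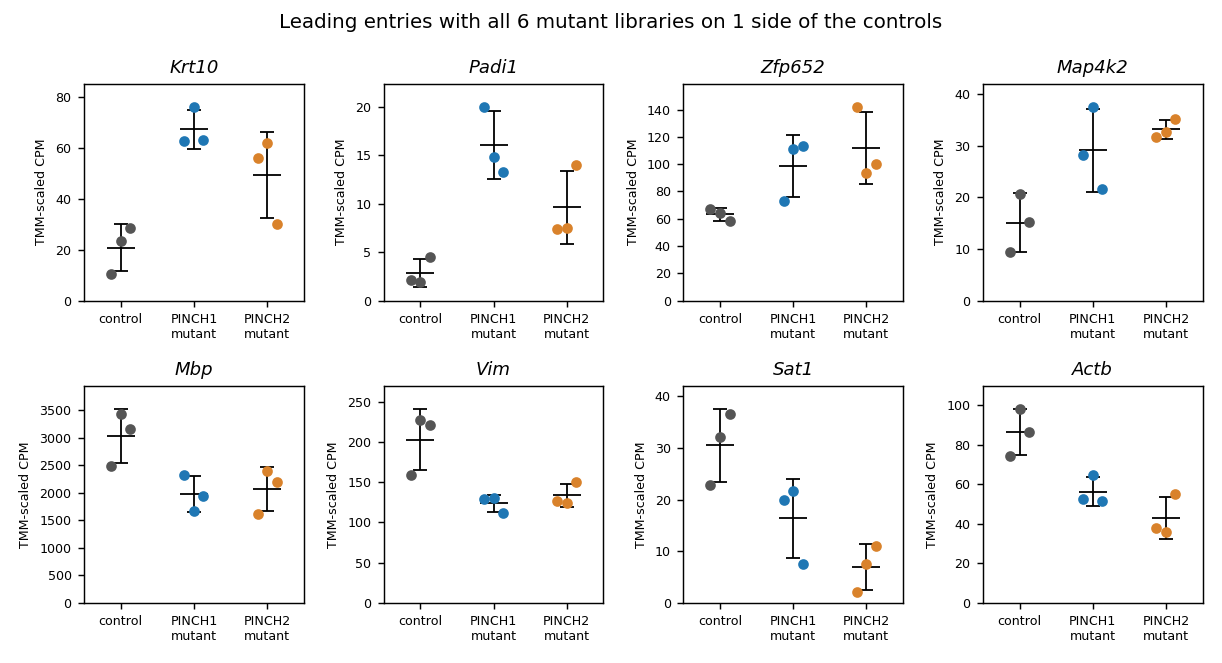
TMM-scaled CPM in each of the 9 libraries for 4 entries that came first on the higher side (Krt10, Padi1, Zfp652, Map4k2) and 4 on the lower side (Mbp, Vim, Sat1, Actb); points are libraries, lines are group means and bars the SD over 3 libraries. The entries were picked for having the 6 mutant points on one side of the 3 control points, and none of the 8 passed the test after adjustment.

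**Figure D2:**
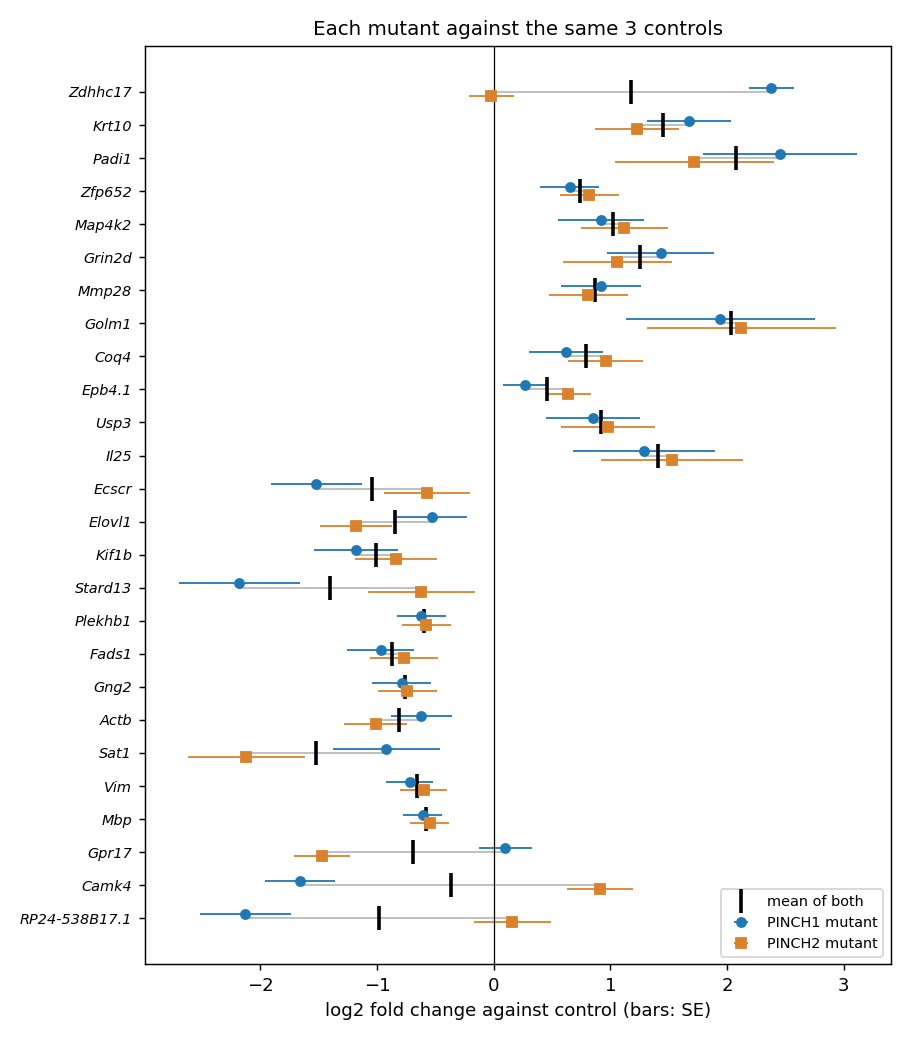
Log2 fold change against control of each mutant and of both together for the entries described in each direction and for 3 that differed between the mutants. Zdhhc17 has its PINCH1 value at 2.38 and its PINCH2 value at -0.02, while Krt10, Mbp, Vim, Gng2 and Plekhb1 have both mutants close together; both mutants share the same controls.

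Mbp belongs to the list of myelin proteins, most of whose members had negative values. Of 27 tested members, 24 had a log2 fold change below 0 and 3 above, with a median of -0.36, where 51.6% of all tested entries were below 0 and their median was -0.01. At an unadjusted p under 0.05, 8 were lower (3.48% of all entries were) and 0 higher, and for 5 members (2.12% of all entries) every mutant library lay below every control. They included Mbp, Pmp22, Cd9 and Mal. Of the 27 members, 20 had no partner, a class in which 127 of 2115 entries were lower by p and 3.36% had all mutants below all controls. With the classes scaled separately 6 members were lower by p and 0 higher. Pmp22, a tetraspan protein of compact myelin, was at 4840, 4310 and 4750 CPM in controls, 4150, 3960 and 3460 CPM in PINCH1 mutants and 3870, 3990 and 3750 CPM in PINCH2 mutants, so the groups came close without overlapping. Its log2 fold change was -0.26 (SE 0.11, adjusted p = 0.882 by edgeR). Nfasc, an adhesion protein, stood at -1.12 (SE 0.35), with -1.55 in PINCH1 mutants, -0.70 in PINCH2 mutants and overlap with the controls. Prx, which links the outer myelin surface to the basal lamina, stood at -0.38 (SE 0.16), Mag at 0.15 (SE 0.27) and Gldn, a ligand at the nodal microvilli, at 0.30. The median of the list was -0.22 without the third control library.

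Enzymes that make fatty acids and myelin lipids had log2 fold changes below 0 in 16 of 17 tested members, with a median of -0.46. At an unadjusted p under 0.05 (3.48% of all entries were lower), 5 were lower, namely Fads1, Elovl1, Elovl7, Fa2h and Acly, and 0 higher, and with the classes scaled separately 2 were lower. Scd2, a desaturase with the highest level here, was at 575, 605 and 627 CPM in controls, 514, 464 and 466 CPM in PINCH1 mutants and 391, 582 and 533 CPM in PINCH2 mutants, with overlap at 1 mutant library. Its log2 fold change was -0.29 (SE 0.14, adjusted p = 0.882 by edgeR). Of the cholesterol synthesis genes, 11 of 15 were below 0, with a median of -0.17 and 0 at an unadjusted p under 0.05, and the median was -0.08 without the third control library. Myelination transcription factors were divided, with 8 of 14 below 0 and a median of -0.17, which was 0.05 without the first control library. Egr2, which drives the myelin genes, stood at -0.62 (SE 0.38) and Sox10, the lineage factor of Schwann cells, at -0.42 (SE 0.28), with intervals that include 0.

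Actin genes and targets of the serum response factor were below 0 in 17 of 22 members, with a median log2 fold change of -0.48. At an unadjusted p under 0.05, 4 members, Actb, Cnn3, Arpc2 and Cnn2, were lower (3.48% of all entries were) and Pfn1, profilin, was higher at 0.74 (SE 0.32). In 4 members, Actb, Cnn3, Tpm3 and Tmsb4x, all mutants lay below all controls, which held for 2.12% of all entries and 3.36% of those without a partner, to which 14 of the 22 belong. With the classes scaled separately 3 were lower and 1 higher by p. The median was -0.32 without the second control library.

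**Figure D3:**
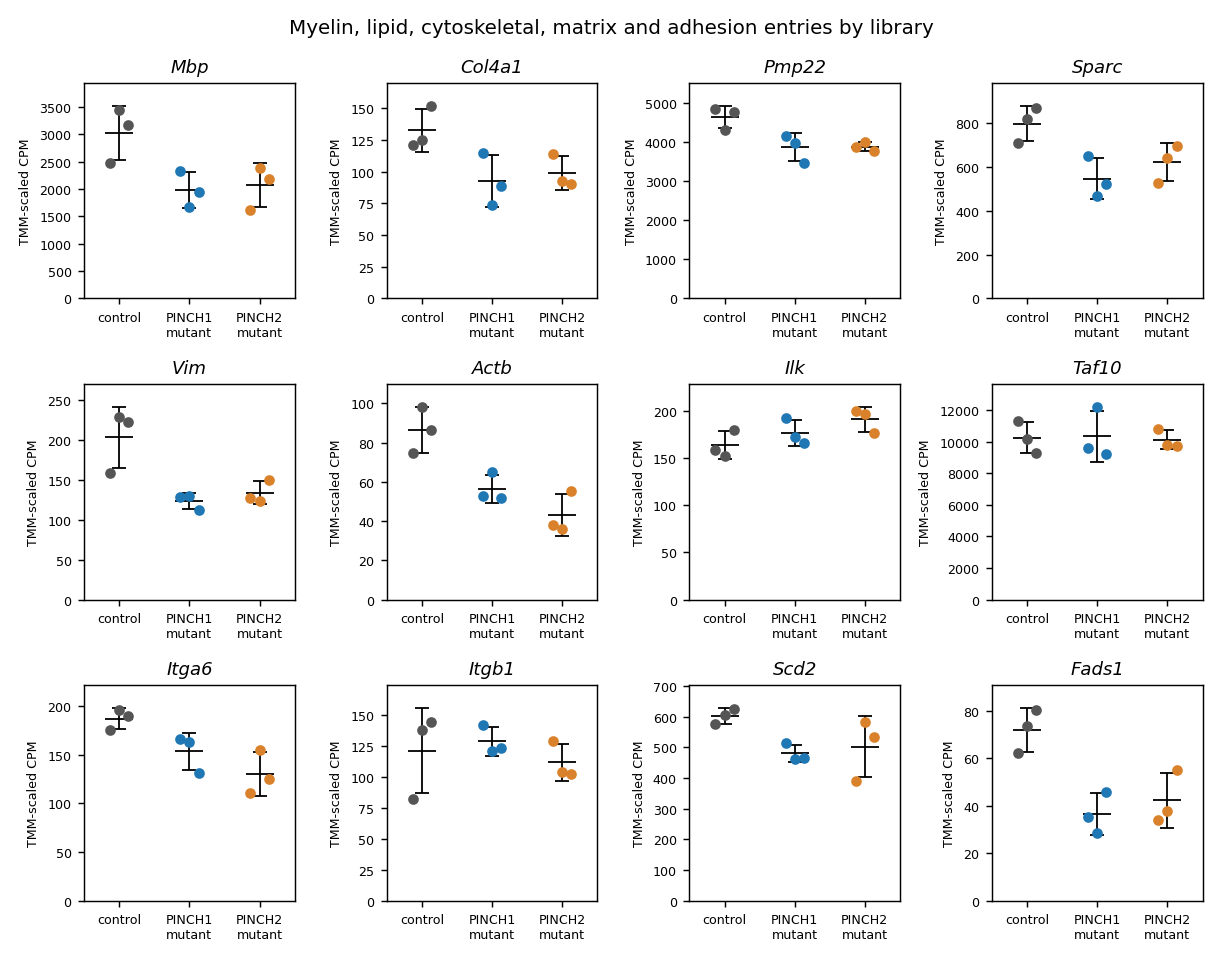
TMM-scaled CPM by library for 12 entries, taken from the myelin, lipid, cytoskeletal, matrix and adhesion genes, with Taf10, which lies over Ilk; points are libraries, lines are group means and bars the SD over 3 libraries. Mbp, Col4a1, Pmp22, Sparc, Vim, Actb, Itga6 and Fads1 have all mutants below all controls, while Ilk, Taf10, Itgb1 and Scd2 overlap.

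Members of the complex that PINCH proteins join showed no call. Ilk was read at 158, 152 and 180 CPM in controls, 192, 172 and 166 CPM in PINCH1 mutants and 200, 197 and 176 CPM in PINCH2 mutants, with overlap. Its log2 fold change was 0.17 (SE 0.16, 95% interval -0.15 to 0.49, adjusted p = 0.981 by edgeR). Its partner on the other strand, Taf10, part of the basal transcription machinery, had 9220 to 12200 CPM and a log2 fold change of -0.01 (SE 0.12). Parva, alpha-parvin, stood at -0.20 (95% interval -0.79 to 0.40) and Rsu1, a partner of PINCH1, at -0.18 (95% interval -1.09 to 0.73), a wide range at these counts. Lims1 had 3, 7 and 7 counts in controls, 0, 1 and 3 in PINCH1 mutants and 0, 1 and 9 in PINCH2 mutants, too few to be tested. Lims2 had 9, 1 and 5 counts in controls, 5, 3 and 1 in PINCH1 mutants and 5, 1 and 1 in PINCH2 mutants. Without the filter the log2 fold change of both mutants was -1.34 (SE 1.02) for Lims1 and -0.88 (SE 1.02) for Lims2, so counts under these 2 names were too few to check the labels. Gpr17, which lies over Lims2, was at 199 to 339 CPM in controls and 67.2 to 126 CPM in PINCH2 mutants. Its log2 fold change was -1.47 in PINCH2 mutants (adjusted p = 0.0191 by edgeR) and 0.10 in PINCH1 mutants. Whether counts under Gpr17 come from Lims2 was not tested. Parvb, beta-parvin, had 0 counts in every library and Parvg 1 count in all.

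Integrins and other focal adhesion genes had a median log2 fold change of -0.05, with 9 of 14 below 0 and 2 lower at an unadjusted p under 0.05 (3.48% of all entries). With the classes scaled separately 7 of 14 were below 0 and 0 had an unadjusted p under 0.05, and the median ran from -0.22 (without the first PINCH1 library) to 0.08 (without the third control) as each library was left out. Itga6, the alpha chain of laminin-binding integrins, was at 175, 196 and 190 CPM in controls, 166, 163 and 131 CPM in PINCH1 mutants and 111, 155 and 125 CPM in PINCH2 mutants, all below the controls. The log2 fold change was -0.40 (SE 0.16, adjusted p = 0.866 by edgeR). Fermt2, kindlin-2, which activates integrins, stood at -0.98 (SE 0.44). Itgb1, the beta chain that pairs with most matrix-binding alpha chains, was at -0.02 (SE 0.19). The basal lamina list, which shares Itga6 and Itgb1, had 13 of 15 members below 0 and a median of -0.26, which was -0.05 without the third control library. Col4a1, a type IV collagen chain, was the other member at an unadjusted p under 0.05, with -0.47 (SE 0.19). Its exons overlap those of Col4a2 on the other strand, at -0.22 (SE 0.27). Fibrillar collagens and other matrix genes had 12 of 16 below 0 and a median of -0.19, which became 0.23 without the second control library. Sparc, a secreted matrix protein, was at 710, 818 and 869 CPM in controls and at 467 to 698 CPM in mutants, which gave -0.45 on the log2 scale (SE 0.14, adjusted p = 0.668 by edgeR).

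The class of entries without a partner had more negative values than the class with one, and this ran beside each of the lower lists. Its median log2 fold change was -0.17, with 64.2% below 0, against 0.04 and 42.3% for entries with a partner. All 6 mutants lay below all controls for 71 entries without a partner (3.36%) and above for 12 (0.567%), while among entries with a partner the numbers were 33 (1.21%) and 38 (1.39%). By level, the median without a partner was -0.22 under 20 CPM, -0.12 from 20 to 100 CPM, -0.02 from 100 to 1000 CPM and -0.01 over 1000 CPM. Of the 15 entries in that top range, 3 had all mutants below all controls, among them Mbp and Pmp22. The share of all counts on entries without a partner was 13.2% ± 1.31 (SD, n = 3) in controls, 11.8% to 14.4%, and 12% ± 0.86 (SD, n = 6) in mutants, 10.6% to 13%. The difference of -1.15 percentage points had a two-sided exact permutation p of 0.167, where the smallest p that 84 splits allow is 0.0119. Both mutants had like means, 12% and 12.1%.

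**Figure D4:**
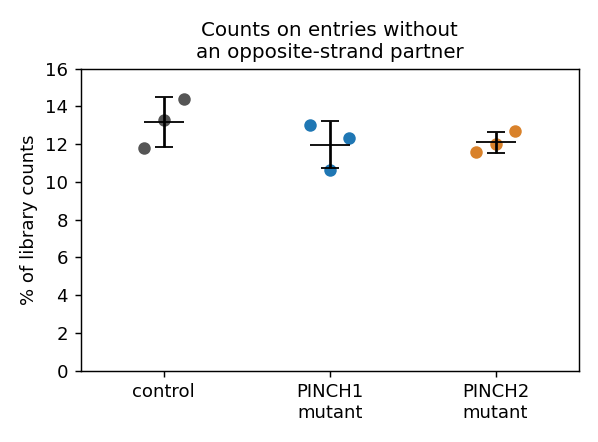
Percent of each library's counts that fell on entries without an opposite-strand partner, for 3 control, 3 PINCH1 mutant and 3 PINCH2 mutant libraries; lines are group means and bars the SD. The controls run from 11.8% to 14.4% and the mutants from 10.6% to 13%, so the groups overlap.

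With the classes scaled separately, the median of the myelin protein list became -0.22 with 23 of 27 members below 0, that of fatty acid and lipid synthesis -0.33 with 15 of 17, and that of actin genes -0.41 with 16 of 22. Mbp then stood at -0.45, Vim at -0.52, Actb at -0.68 and Fads1 at -0.74. The part of the class shift in the lower lists was not tested. Among the members without a partner alone, 17 of 20 myelin proteins were below 0 with a median of -0.34, and 14 of 14 lipid enzymes with a median of -0.47.

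Entries that lie over members of the lists are annotated at the same loci on the other strand. From which strand their counts come was not tested. The 7 entries over myelin protein genes had 4 above and 3 below 0 and a median of 0.03. Gm15541, over Prx, had 4819 to 11426 counts in controls and 3018 to 13734 in mutants, a log2 fold change of 0.43 (SE 0.51), while Prx itself was at -0.38. Dnajc7, a chaperone gene over Cnp and Nkiras2, stood at -0.64 (SE 0.19), mostly in the PINCH1 mutants at -0.94. All 5 entries over fibrillar matrix genes were above 0, with a median of 0.51, where 42.3% of entries with a partner were below 0. The one at an unadjusted p under 0.05, 2810430I11Rik over Col5a1, had 34, 40 and 91 counts in controls and 31 to 153 in mutants, which overlap (log2 fold change 0.97, SE 0.42). Of the 16 entries over nuclear genes of the respiratory chain, 12 were above 0, with a median of 0.15, while 18 of the 25 respiratory genes tested were themselves below 0, with a median of -0.25 (-0.14 without the second control library).

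Ribosomal proteins of the cytosol were below 0 in 56 of 73 members, with a median of -0.28. At an unadjusted p under 0.05, 5 were lower, among them Rps4x at -0.75 (SE 0.27), and 0 higher, a share near that of all entries without a partner (127 of 2115), to which 55 of the 73 belong. With the classes scaled separately 2 were lower and 1 higher. Genes of the neuregulin, Akt and mTOR pathway, which signals axon size to the Schwann cell, were below 0 in 12 of 14 members, with 0 at that threshold. Their median was -0.30 over both mutants, made of -0.58 in PINCH1 mutants and -0.10 in PINCH2 mutants. It was -0.64 without the first control library and -0.15 with the classes scaled separately. Chaperones were below 0 in 6 of 7, with a median of -0.48, and Hspa8 stood at -0.59 (SE 0.24). The Hspa8 value was -0.22 in PINCH1 mutants and -0.97 in PINCH2 mutants. The 95% interval of its difference, 0.14 to 1.36, left out 0 before adjustment. All 6 iron and metal binding genes were below 0, with a median of -0.70. In that list Fth1, the ferritin heavy chain, was at 178, 133 and 169 CPM in controls, 88.1, 69.4 and 84 in PINCH1 mutants and 101, 138 and 165 in PINCH2 mutants, so the low values lay mainly in PINCH1 mutants. The metallothionein Mt2 had the same order, with -2.32 in PINCH1 mutants and -0.38 in PINCH2 mutants. Cell cycle genes had 6 of 11 above 0 and a median of 0.03, with 0.21 in PINCH1 mutants and -0.18 in PINCH2 mutants. Immediate early genes had 3 of 4 above 0 and a median of 0.08, and unfolded protein response genes 4 of 10 and -0.15. None of the 3 medians over both mutants kept its sign: they were -0.09 for cell cycle genes without the second PINCH2 library, -0.02 for immediate early genes without the first control and 0.13 for unfolded protein response genes without the second control. The 13 protein-coding genes of the mitochondrial genome had a median of -0.08, which was 0.07 with the classes scaled separately, -0.45 without the second control library and 0.42 without the third.

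YAP and TAZ targets were below 0 in 5 of 6 members with a median of -0.39. Yap1 itself, a coactivator that Schwann cells use in myelination, was at 22.8, 35.8 and 9.81 CPM in controls, 6.36, 5.69 and 10.8 in PINCH1 mutants and 3.17, 18.4 and 3.01 in PINCH2 mutants, with overlap (log2 fold change -1.48, SE 0.52). Its partner Gm20416 stood at 0.24 (SE 0.20). Of nonmyelinating Schwann cell genes 4 were tested, with a median of -1.07 in PINCH1 mutants and 0.13 in PINCH2 mutants, so no shared direction. Over both mutants the median was -0.74, which was 0.04 without the third control library and -1.19 without the first. Scn7a, a sodium channel gene of those cells, was at 25.9, 57.5 and 105 CPM in controls and at 6.36 to 36.0 CPM in mutants, which overlap at the lowest control. Its log2 fold change was -1.47 (SE 0.42), and without the filter on low counts it passed with an adjusted p of 0.00439 in edgeR. Immature and repair Schwann cell genes had 4 tested members and a median of -0.09, which was 0.23 without the third control library.

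**Figure D5:**
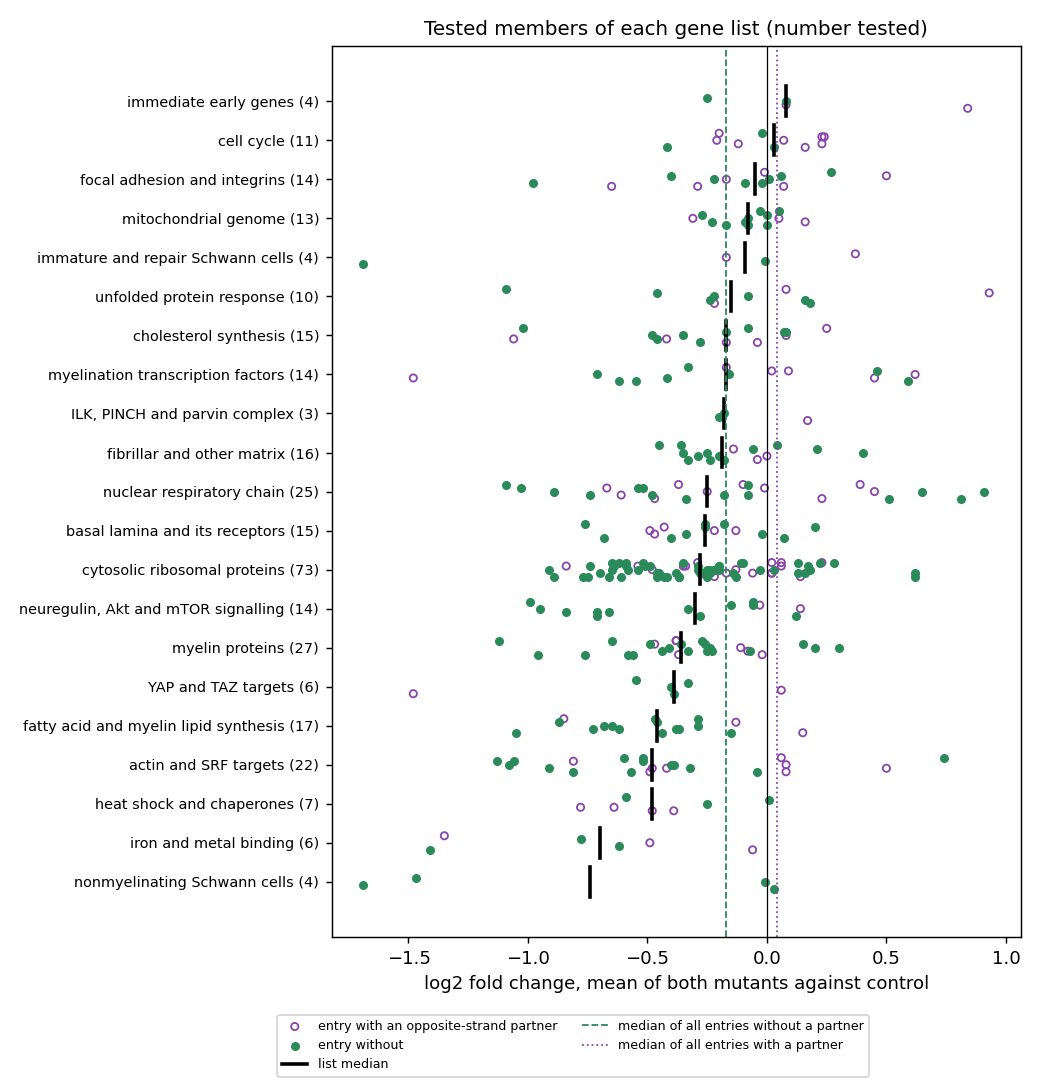
Log2 fold change of both mutants together against control for every tested member of the gene lists shown, with the number tested in parentheses; filled points are entries without a partner, open points entries with one, black bars list medians, and dashed and dotted lines the class medians of -0.17 and 0.04. The lists of lipid enzymes, actin genes and myelin proteins have medians of -0.46, -0.48 and -0.36, left of both class medians.

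Markers of other cell types were read as sums over each list. The macrophage markers summed to 589 to 776 CPM in controls, 573 to 714 in PINCH1 mutants and 516 to 723 in PINCH2 mutants, with Aif1 at 0 in every library, 2 of 13 tested, Csf1r at -0.11 (SE 0.14) and Cd163 at 0.22 (SE 0.36). Fibroblast markers summed to 713 to 1400 CPM in controls, 895 to 944 and 608 to 952 CPM in the mutants, with 7 of 8 tested members below 0 and a median of -0.26, which was -0.06 without the second control library and -0.43 without the first. Endothelial markers summed to 59.7 to 69.8 CPM in controls, 34.5 to 51.2 in PINCH1 mutants and 47.1 to 70.2 in PINCH2 mutants, so the PINCH1 mutants lay below all controls. Of the 10 markers 2 were tested, Egfl7 at 0.19 (SE 0.44) and Ecscr, already named for its low values, at -1.04 (SE 0.32). Ecscr, which has the partner 1700066B19Rik, was alone at 26.8 to 34.2 CPM in controls and 5.82 to 15.9 CPM in PINCH1 mutants. Adipocyte markers summed to 1.04 to 4.46 CPM in controls, 4.54 to 12.5 in PINCH1 mutants, all above the controls, and 3.34 to 8.46 in PINCH2 mutants, with Plin1 and Adipoq at 0 in every library and 0 of 6 tested. Perineurial markers had 3 of 3 tested members below 0. Lymphocyte and neutrophil markers reached at most 3.77 CPM in sum, and S100a8, S100a9, Ly6g, Cd3d, Cd3e, Nkg7 and Ms4a1 were at 0 in every library. Skeletal muscle markers summed to at most 18.7 CPM, with Acta1, Mb, Myh3, Myh8 and Tnnc2 at 0. The 3 entries over muscle genes were nevertheless high in the second library of both mutants: Ube2c, over Tnnc2, had 255 counts in that PINCH1 library and 110 in that PINCH2 library, against 0 to 21 in the others. The part of these markers in the values of the lists was not tested.

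The rule on low counts kept 4909 of 25965 entries. Just inside it, 439 entries had 10 counts in exactly 3 libraries, with a median mean of 7.89 counts, and just outside it 627 had 10 counts in exactly 2, with a median mean of 6.44 counts. Among all tested entries, 119 (2.42%) reached 10 counts in mutant libraries alone and 6 (0.122%) in the controls alone, in a design with 6 mutant libraries and 3 controls. The 6 are among the 439 just inside the rule.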

How the data were processed

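Per the labels' protocols, total RNA from pooled sciatic nerves was sequenced from TruSeq libraries. Per the submitters' processing notes, HISAT2 2.0.5 and the build GRCm38 were used, with cutadapt 1.9.1 and Trim Galore 0.4.2. The deposited table, made by the authors, holds whole-number counts per gene entry, with no scaling for depth or length. No source used here gives the counting tool, strand setting or annotation release. All per-sample columns were used.

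Entries were matched by gene identifier to GENCODE M21 (96.5% found) and opposite-strand exon overlaps were found with bedtools 2.31.1. Counts were tested with edgeR 4.0.16 in R 4.3.3 (quasi-likelihood, robust, TMM, 3 genotype groups, mean of both mutants minus control), with Benjamini-Hochberg adjustment over 4909 entries and a threshold of 0.05. Intervals are at 95%. SE is in log2 units. Intervals of fold changes include the spread between libraries, and the limits set by 3 counts cover counting error only. The procedure was tested on simulated data.

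The gene lists and named entries were chosen with earlier results of these data known. Named were the members of the ILK complex, the entries past the threshold, up to 12 next by p in each direction with an official symbol and no overlap between the 6 mutant and 3 control libraries, for each list up to 4 members by p and level, 4 entries known to differ between the mutants, and partners of these. Afap1l1, Nespas and further list members were named after their values were seen. Some items are not reported here. Alternatives covered upper-quartile and RLE scaling, TMM leaving out the 20 entries of highest count, classes scaled separately, DESeq2 1.42.0, limma-voom in limma 3.58.1, no filter, filterByExpr, at least 50 counts, 1 mutant group, both mutants required, a replicate block, an adjusted p threshold of 0.01, a 1.2-fold minimum and each library left out.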

Additional observations from a re-analysis of the deposited data

Results flagged for a closer look

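Attention is drawn to 4 entries because PINCH1 and PINCH2 mutants differed from each other by edgeR with adjustment over all entries (0.0815% of those tested), so that their mean over both mutants describes neither. Zdhhc17 differed by 2.40 on the log2 scale (adjusted p = 9.21e-08 by edgeR), high in the PINCH1 mutants. Gpr17, a receptor gene that lies over Lims2, differed by 1.57 (adjusted p = 0.0026 by edgeR). It was at 333, 199 and 339 CPM in controls, 300, 277 and 354 in PINCH1 mutants and 120, 126 and 67.2 in PINCH2 mutants. Its mean over both mutants was -0.69, made of 0.10 in PINCH1 mutants and -1.47 in PINCH2 mutants, the latter called against control (adjusted p = 0.0191 by edgeR). Camk4, a calcium-dependent kinase, differed by -2.57 (adjusted p = 6.44e-05 by edgeR), with 50 to 121 CPM in controls, 24.5 to 35.8 in PINCH1 mutants and 139 to 217 in PINCH2 mutants. Its mean over both mutants was -0.37, made of -1.66 and 0.91. RP24-538B17.1 differed by -2.29 (adjusted p = 0.00722 by edgeR), with 30.3 to 56 CPM in controls, 7.49 to 13.6 in PINCH1 mutants and 37.6 to 67.2 in PINCH2 mutants. Its difference lost the call without the third PINCH1 library (adjusted p = 0.145 by edgeR) or the third PINCH2 library (adjusted p = 0.0847 by edgeR).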

How the results depend on the processing

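The count of 1 higher entry was 2 without the filter on low counts (Zdhhc17 and Krt10), 0 with the 6 mutant libraries as 1 group and 0 with both mutants required. It ranged from 1 to 2 as each library was left out in turn. Without the second control library Nespas was called too, at 1.42 (adjusted p = 0.033 by edgeR) against 0.84 with all libraries (adjusted p = 0.805), its counts being 47, 154 and 75 in controls and 121 to 274 in mutants. The count of 0 lower entries was 2 without the filter (Scn7a and Mbp) and stayed at 0 with any library left out. At an unadjusted p under 0.05, edgeR gave 171 lower entries, DESeq2 133 and limma-voom 218, and with both mutants required 33. The 24 leading entries had the same sign under every alternative run for them. Apart from Zdhhc17 they were picked for having all mutants on 1 side of the controls, which makes a constant sign likely from the start. Of all 115 named entries, 81 kept the same sign under every alternative. The share of counts on entries without a partner differed by -1.83 to -0.533 percentage points with each library left out, by -0.965 over tested entries alone and by -1.18 without mitochondrial entries, the last 2 chosen after seeing the data. The cause of these changes was not tested.

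Replicate numbers are shared across genotypes and were not used to pair the samples in the main test. Deviations of same-numbered libraries correlated at -0.09 to 0.22, with 2 of 9 pairs over 0.1. Those of libraries with different numbers correlated at -0.18 to 0.12. With so few pairs, these values cannot exclude a weak pairing. With the replicate block 1 entry was higher and 1 lower, Afap1l1 at -2.57 (adjusted p = 0.0492 by edgeR). Its counts were 40, 5 and 59 in controls, 0, 0 and 1 in PINCH1 mutants and 78, 21 and 107 in PINCH2 mutants. Depth limits low entries: 3 counts were 2.5 to 3.41 CPM.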
